A study of Mus musculus with 12 samples.

Results

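The genes described here are 10 targets of interferon-gamma: the transcription factor gene Irf1, the guanylate-binding protein genes Gbp2, Gbp3, Gbp6 and Gbp7, the immunity-related GTPase genes Irgm1, Irgm2, Igtp and Iigp1, and Ubd. They were chosen by symbol, and all 10 were found among the 46517 gene identifiers and were among the 12522 genes with enough counts to test. RNA was sequenced from colonic intestinal epithelial cells of C57BL/6 mice aged 7 to 9 weeks, in 4 groups of 3 samples. Wild-type (WT) and Nfkb2-/- (KO) mice were each either untreated or exposed for 48 h to dextran sulfate sodium (DSS), a polymer that damages the lining of the colon. Nfkb2 encodes p100, the precursor of the NF-kB subunit p52. The labels give the genotype alone, with neither the allele nor a cell type to which the deletion is limited, so other cells of these mice may also lack the gene. Cells were released from colon pieces with EDTA, no sort is described, and they were typically about 90% EpCAM-positive and CD45.2-negative per the labels. Each group has 3 biological replicates per the series' design text. The p-values measure the spread between those samples.

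Interferon-gamma, made mainly by T cells, NK cells and other innate lymphocytes, binds a receptor on many cell types, including intestinal epithelium. Signalling from the receptor through Janus kinases leads to binding at GAS elements in promoters and switches on IRF1, and IRF1 in turn acts through interferon-stimulated response elements (ISRE). Guanylate-binding proteins and immunity-related GTPases are large GTP-hydrolysing proteins that gather on vacuoles and membranes of intracellular microbes. Irgm1, Irgm2 and Igtp are regulatory members that restrain effectors such as Iigp1 on the cell's own membranes. Ubd encodes FAT10, a ubiquitin-like modifier that directs proteins to the proteasome and is known to respond to interferon-gamma together with TNF.

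The promoters show what these genes share in sequence beyond the list. Windows from RefSeq's promoter table (GRCm38.p6) were searched for 8 of the 10 members. The table held no entry for Gbp6, and Iigp1 was left out of the search by choice. In the 250 bases before each start, both strands were searched for the GAS letters TTCNNNGAA, an ISRE core (GAAA, any 2 bases, GAAA) and a kB-type motif (GGG, any 5 bases, CC). The ISRE core occurred in 6 of the 8 (Gbp2, Gbp3, Gbp7, Igtp, Irgm1 and Irgm2), against 3.46% of the 27025 genes of the table (2.98% of its 32851 windows, since some genes, Irf1 and Gbp3 among them, have more than 1). GAS letters occurred in 4 of the 8 (Irf1, Gbp7, Igtp and Irgm2), against 8.13% of all genes (7.02% of windows). The kB letters occurred in 3 of the 8 (Irf1, Irgm2 and Ubd), against 48.7% of all genes (45.8% of windows). Matches of different motifs did not overlap each other, whereas matches of the same motif overlapped in Gbp3, Irgm1 and Irf1. A match is a run of letters, not a measured binding site, and the lack of a match concerns this window alone. The last 110 bases before the first RefSeq start are printed 5′ to 3′ on the gene's strand for the transcription factor, for 4 genes whose response to DSS differed between genotypes, and for Igtp, whose promoter resembles that of Irgm2. Capitals mark matches to any of the 3 motifs. The stretches are chr11:53769904-53770013 for Irf1, chr3:142620553-142620662 for Gbp2, chr3:142559934-142560043 for Gbp3, chr11:58199446-58199555 for Igtp, chr11:58214867-58214976 for Irgm2 and chr17:37193782-37193891 for Ubd, all on the plus strand. RefSeq's starts differ from the GENCODE gene bounds given further on, and the Gbp2, Gbp3 and Irgm2 stretches reach into or lie within those bounds.
Irf1: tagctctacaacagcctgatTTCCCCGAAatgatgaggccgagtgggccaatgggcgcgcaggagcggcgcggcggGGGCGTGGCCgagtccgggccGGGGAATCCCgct
Gbp2: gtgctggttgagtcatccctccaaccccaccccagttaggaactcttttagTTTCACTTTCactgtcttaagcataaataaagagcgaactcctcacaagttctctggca
Gbp3: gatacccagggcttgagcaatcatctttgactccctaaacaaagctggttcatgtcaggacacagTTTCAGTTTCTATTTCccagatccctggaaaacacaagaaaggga
Igtp: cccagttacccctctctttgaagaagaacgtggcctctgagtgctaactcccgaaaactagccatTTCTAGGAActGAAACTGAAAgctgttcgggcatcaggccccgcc
Irgm2: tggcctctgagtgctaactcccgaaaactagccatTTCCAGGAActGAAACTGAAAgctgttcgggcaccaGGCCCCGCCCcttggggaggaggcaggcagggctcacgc
Ubd: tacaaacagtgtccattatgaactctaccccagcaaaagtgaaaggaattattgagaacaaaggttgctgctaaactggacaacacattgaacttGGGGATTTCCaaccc

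In Gbp2 the ISRE core lay at -59 to -50 from the start. In Gbp3 a pair of overlapping cores spanned -45 to -30. Igtp carried GAS letters at -45 to -37 and the ISRE core at -34 to -25, and Irgm2 carried the same arrangement at -75 to -67 and -64 to -55. Only the first window of each gene was compared with the others. The Igtp and Irgm2 windows share an unbroken run of 55 identical bases, whereas every other pair of first windows shared a run of at most 13. That run lies upstream of the printed stretches and holds no match to the motifs. In Ubd a single kB match lay at -15 to -6, with neither GAS letters nor an ISRE core in its 250 bases. Irf1 carried GAS letters at -90 to -82 and 4 kB matches.

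Total counts were 5595909 to 8117740 per library, and 15738 to 17120 genes had at least 1 count. Levels are CPM, the counts divided by library size on a common scale, with edgeR's TMM factors. Each value is listed for samples 1, 2 and 3 of its group, and ± marks the SD with n = 3. A change is a log2 fold change with its standard error (SE) from edgeR's quasi-likelihood test, and passing means a p under 0.05 after Benjamini-Hochberg adjustment over all tested genes. Nfkb2 itself averaged 36.9 ± 6.52 CPM in untreated WT and 42.5 ± 3.34 in WT under DSS, against 14.4 ± 2.90 in KO mice without DSS and 17.5 ± 2.04 with it, and no KO sample reached the lowest WT sample. Epithelial markers were abundant in every library (summed level 21735 to 33096 CPM for 8 genes), while no stromal or endothelial marker list exceeded 6.72 CPM in sum. Library numbers ran in order of genotype, and the effects of the 2 cannot be told apart.

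DSS was followed by higher levels of almost all members in both genotypes. In WT, 9 of the 10 passed and all 9 were higher, where 2.80% of all tested genes passed as higher and 6.30% passed in either direction. In KO, 9 of the 10 were also higher, where 1.88% of all tested genes passed as higher and 3.92% in either direction. The uncalled member was Gbp6 in WT and Ubd in KO. The median log2 change of the 10 members was 0.65 in WT and 1.19 in KO, while the median over all tested genes was 0.01 and 0.02. Bulk RNA cannot separate more RNA per cell from a larger share of cells that express a gene, or less RNA per cell from fewer such cells.

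**Figure D1:**
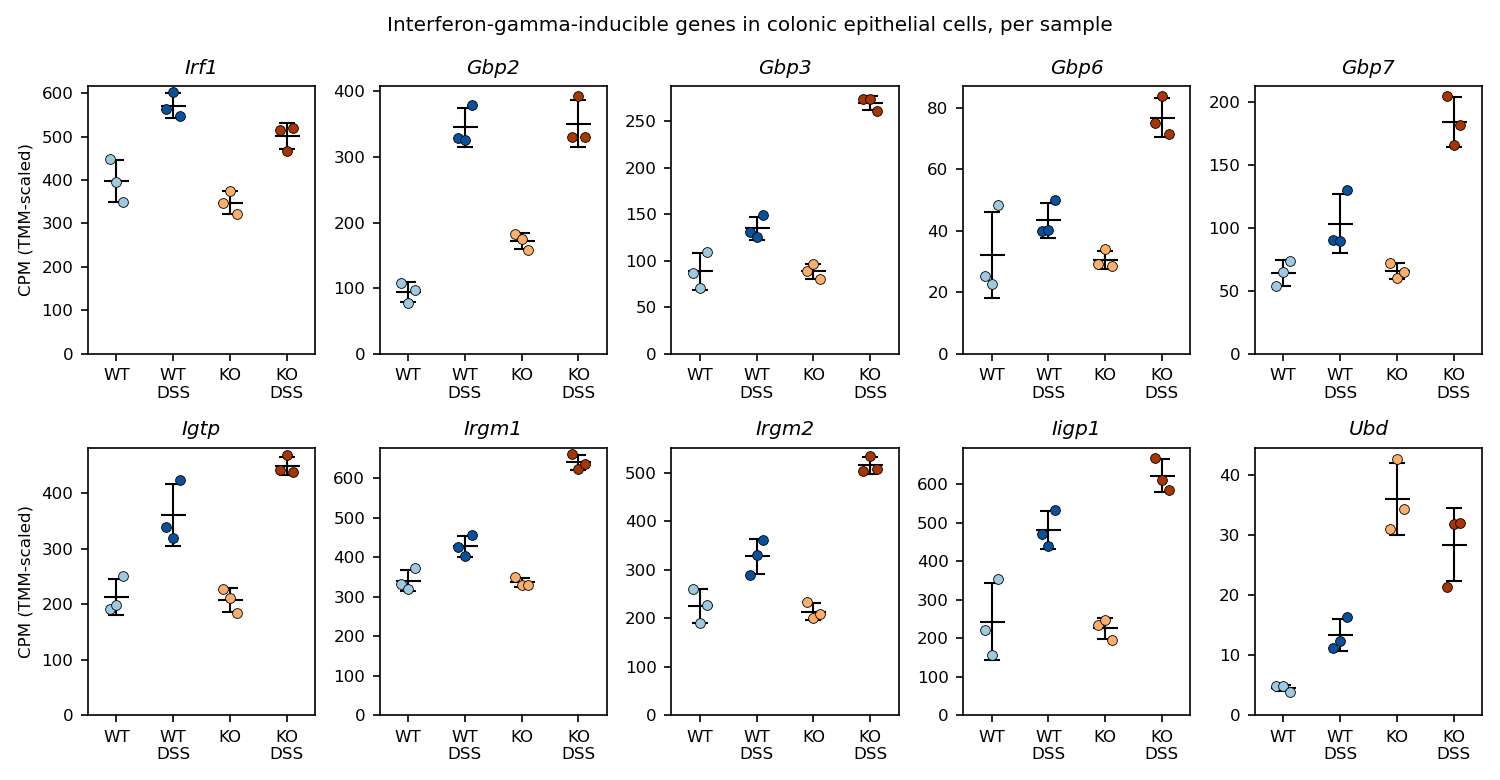
Level of each of the 10 genes in CPM (TMM-scaled) in the 12 samples, by group; points are samples, and horizontal marks and bars are the group mean and 1 SD (n = 3). The 8 GTPase genes have their highest mean in KO under DSS, Irf1 has it in WT under DSS, and Ubd has it in untreated KO.

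Irf1, the transcription factor of the group, was higher under DSS in both genotypes. Its levels were 448, 396 and 349.7 CPM in untreated WT (398 ± 49.3) and 564, 603 and 548 in WT under DSS (572 ± 28.3). In KO they were 347, 375 and 322 untreated (348 ± 26.5) and 516, 468 and 521 under DSS (502 ± 29.3). Every DSS sample lay above every untreated sample, and untreated WT and KO overlapped. Irf1 rose by 0.52 in WT (SE 0.10, adjusted p = 0.0058) and by 0.53 in KO (SE 0.10, adjusted p = 0.00981). The difference between those changes was 0.01, with a 95% interval of -0.31 to 0.32. KO was not called different from WT, at -0.19 untreated (adjusted p = 0.408) and -0.19 under DSS (adjusted p = 0.439), although all 3 KO samples under DSS lay below all 3 WT samples under DSS. The KO call did not hold without untreated KO sample 3 (0.47, adjusted p = 0.0634). Gene coordinates here and below are from GENCODE M21 on GRCm38; Irf1 spans chr11:53770014-53778374 on the plus strand.

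Gbp2, a guanylate-binding protein gene at chr3:142620602-142638008 (plus strand), differed between genotypes before DSS and not detectably after it. It read 107, 77.8 and 97.0 CPM in untreated WT (94.0 ± 15.0) and 182, 175 and 158 in untreated KO (172 ± 12.1), with no overlap. Under DSS it read 329, 326 and 380.1 in WT (345 ± 30.3) and 330.1, 393 and 331 in KO (351 ± 36.0), with the samples interleaved. The untreated KO level was 1.83-fold that of WT (log2 0.87, SE 0.13, adjusted p = 0.00139). DSS raised Gbp2 by 1.87 in WT (SE 0.13, adjusted p = 4.54e-07) and by 1.03 in KO (SE 0.13, adjusted p = 0.000291). These changes differed by -0.84 (SE 0.18, adjusted p = 0.0227), a call that did not hold with the replicate number as a block (adjusted p = 0.0535). Under DSS the genotypes differed by 0.03, with a 95% interval of -0.24 to 0.29.

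Gbp3, at chr3:142560026-142573209 (plus strand), had the opposite pattern: the genotypes were level before DSS and apart after it. Untreated samples read 86.3, 70.1 and 109 CPM in WT (88.4 ± 19.5) and 89.4, 96.3 and 80.4 in KO (88.7 ± 7.95). Under DSS they read 130.4, 125 and 149 in WT (135 ± 12.3) and 274, 275 and 261 in KO (270.0 ± 7.70). The lowest KO sample under DSS was far above the highest WT sample. Gbp3 rose by 0.61 in WT (SE 0.14, adjusted p = 0.0183) and by 1.61 in KO (SE 0.14, adjusted p = 2.15e-05). The difference between these changes was 1.00 (SE 0.20, adjusted p = 0.0158), and KO exceeded WT under DSS by 1.00 (SE 0.14, adjusted p = 0.00113).

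Gbp7, the neighbour of Gbp3 on the same strand (chr3:142530342-142550149), had a similar order of levels. Untreated it read 53.6, 64.6 and 73.9 CPM in WT (64.0 ± 10.1) and 72.2, 59.7 and 64.6 in KO (65.5 ± 6.28), and the groups overlapped. Under DSS it read 90.7, 89.2 and 130.1 in WT (103 ± 23.2) and 205, 166 and 182 in KO (184 ± 19.7), with no overlap. It rose by 0.69 in WT (adjusted p = 0.0207) and by 1.49 in KO (adjusted p = 0.000149), and KO exceeded WT under DSS by 0.84 (SE 0.16, adjusted p = 0.011). The test of the difference between the changes did not pass (0.80, SE 0.23, adjusted p = 0.132). Of the 50-base words of its exons, 12.7% also occur in other genes, mainly the processed pseudogene Gm43802.

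Gbp6 (chr5:105270702-105293698, minus strand) had the lowest CPM per kilobase of exon among the GTPases. It read 25.2, 22.8 and 48.4 CPM in untreated WT (32.1 ± 14.1) and 29.2, 33.9 and 28.5 in untreated KO (30.6 ± 2.95). Under DSS it read 40.1, 40.1 and 49.9 in WT (43.4 ± 5.65) and 75.3, 83.9 and 71.5 in KO (76.9 ± 6.36). The KO samples under DSS lay above all others, whereas untreated WT sample 3 lay within the WT range under DSS. It rose by 1.33 in KO (SE 0.23, adjusted p = 0.00478). The WT change of 0.43 did not pass (adjusted p = 0.383), and it passed without untreated WT sample 3 (0.85, adjusted p = 0.0063). Neither the genotype difference under DSS (0.83, adjusted p = 0.0751) nor the difference between changes (0.90, adjusted p = 0.295) passed. Gbp6 counts are uncertain in origin, since 70.7% of its exonic 50-base words also occur in other genes, 65.0% in Gm43302 and 45.9% in Gbp10. Those genes had at most 1 and 19 counts per library. How reads from shared stretches were counted is not given in the sources used here. Whether some were lost, which would lower the Gbp6 level, was not tested.

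Irgm1, at chr11:48861968-48871683 (minus strand), encodes a regulatory GTPase linked to autophagy and membrane protection. It read 332, 319 and 372 CPM in untreated WT (341 ± 27.6) and 349, 329.9 and 329.8 in untreated KO (336 ± 11.2). Under DSS it read 426, 403 and 455 in WT (428 ± 26.5) and 661, 623 and 637 in KO (641 ± 19.2). The DSS groups did not overlap with each other or with either untreated group, which did overlap. The rise was 0.33 in WT (SE 0.09, adjusted p = 0.0395) and 0.93 in KO (SE 0.09, adjusted p = 3.55e-05), a difference of 0.60 (SE 0.13, adjusted p = 0.0208). Under DSS, KO exceeded WT by 0.58 (SE 0.09, adjusted p = 0.00218).

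Irgm2 and Igtp are neighbouring regulatory GTPase genes on chromosome 11 with overlapping annotated exons. Igtp spans chr11:58199556-58207591 and Irgm2 spans chr11:58199618-58222782, both on the plus strand, and 11.8% of the 50-base words of Igtp occur in Irgm2, so reads from the overlap cannot be assigned with certainty. Irgm2 read 261, 190.5 and 226 CPM in untreated WT (226 ± 35.2), 289, 331 and 362 in WT under DSS (327 ± 36.4), 233, 199.7 and 208 in untreated KO (214 ± 17.5) and 503, 535 and 507 in KO under DSS (515 ± 17.4). It rose by 0.53 in WT (SE 0.12, adjusted p = 0.0148) and by 1.27 in KO (SE 0.12, adjusted p = 3.55e-05), a difference of 0.73 (SE 0.17, adjusted p = 0.0434) that did not pass with the replicate number as a block (adjusted p = 0.0775). KO exceeded WT under DSS by 0.65 (SE 0.12, adjusted p = 0.00769). For Irgm2, no KO sample under DSS overlapped WT under DSS, and the untreated genotypes overlapped. Igtp read 191, 198 and 250.3 CPM in untreated WT (213 ± 32.4), 338, 319 and 424 in WT under DSS (361 ± 56.2), 227, 211 and 184 in untreated KO (208 ± 21.7) and 441, 468 and 437 in KO under DSS (449 ± 16.7). The Igtp rise was 0.76 in WT (SE 0.13, adjusted p = 0.00224) and 1.11 in KO (SE 0.13, adjusted p = 0.000252). The difference of 0.35 between those changes did not pass (adjusted p = 0.54), nor did the excess of KO over WT under DSS (0.32, adjusted p = 0.264), although all 3 KO samples lay above all 3 WT samples.

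Iigp1, the effector among the immunity-related GTPases listed here, is on chromosome 18 at chr18:60376027-60392634 (plus strand). It read 221, 155 and 353 CPM in untreated WT (243 ± 101), 470.3, 439 and 534 in WT under DSS (481 ± 48.6), 234, 248 and 194 in untreated KO (225 ± 27.7) and 669, 611 and 586 in KO under DSS (622 ± 42.6). Untreated WT spanned the whole range of untreated KO, and the 2 DSS groups did not overlap. Iigp1 rose by 0.99 in WT (SE 0.21, adjusted p = 0.0111) and by 1.47 in KO (SE 0.21, adjusted p = 0.00136). The difference between the changes (0.48, adjusted p = 0.652) and that between genotypes under DSS (0.37, adjusted p = 0.462) did not pass.

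Ubd, at chr17:37193892-37196095 (plus strand), shares no 50-base word with another gene, and its highest level was in untreated KO. It read 4.81, 4.76 and 3.86 CPM in untreated WT (4.48 ± 0.53) and 11.2, 12.3 and 16.3 in WT under DSS (13.3 ± 2.68), with no overlap. In KO it read 31.0, 42.6 and 34.2 untreated (35.9 ± 6.00) and 21.4, 31.7 and 32.0 under DSS (28.4 ± 6.05), and those groups overlapped. Every KO sample, treated or not, lay above every WT sample. The lowest of these values rests on 25 counts, the fewest of any member in any library. Without DSS, Ubd exceeded its WT level in KO by 3.00 (SE 0.25, adjusted p = 6.83e-06). It rose by 1.56 in WT under DSS (SE 0.25, adjusted p = 0.00112). In KO the DSS difference of -0.34 did not pass (adjusted p = 0.503, 95% interval -0.80 to 0.12). The changes differed by -1.90 (SE 0.33, adjusted p = 0.00675), and KO still exceeded WT under DSS by 1.10 (SE 0.22, adjusted p = 0.0146).

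**Figure D2:**
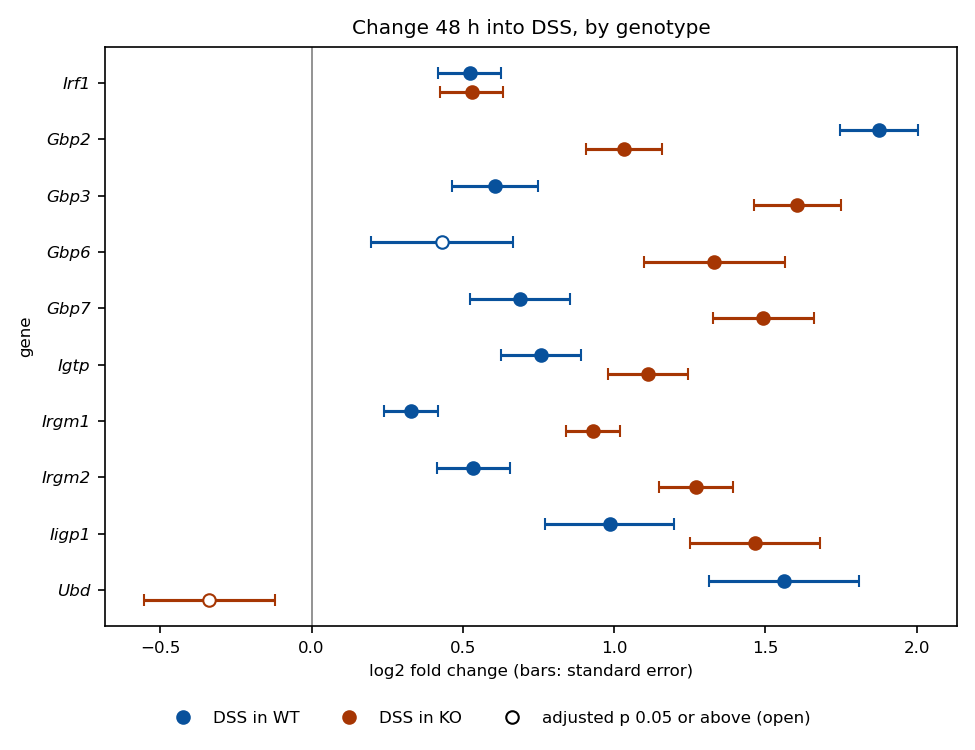
Log2 fold change of DSS against untreated for each gene, in WT and in KO, with bars for 1 standard error and open symbols for an adjusted p of 0.05 or above. Gbp2 and Ubd have the larger change in WT, and Irf1 has 0.52 in WT and 0.53 in KO; the other 7 have the larger estimate in KO.

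Between genotypes, Ubd passed both before and after DSS, Gbp2 before and 4 of the GTPases after. Untreated, 2 of the 10 passed, Gbp2 and Ubd, each higher in KO, where 1.72% of all tested genes passed as higher and 3.48% in either direction. The other 8 had log2 differences from -0.19 to 0.03. Under DSS, 5 of the 10 passed, all higher in KO (Gbp3, Gbp7, Irgm1, Irgm2 and Ubd), where 1.77% of all genes passed as higher and 3.11% in either direction. In the same contrast 8 of the 10 were higher in KO with no overlap between the groups, against 11.7% of all genes. Summed T and NK cell markers were also higher in KO without overlap, at 61.7 to 85.1 against 12.1 to 27.1 CPM untreated and 81.3 to 114 against 33.8 to 45.6 under DSS, and their part in these differences was not tested. The summed myeloid markers other than Cd14, which was set aside after its values were seen, were likewise higher in KO. They summed to 16.4 to 19.4 against 6.12 to 10.5 CPM untreated and 46.7 to 69.4 against 22.3 to 34.2 under DSS. With Cd14 included, the sums were 126 to 139 CPM in KO against 71.7 to 85.1 in WT untreated. Under DSS the sums with Cd14 overlapped, at 186 to 205 in KO and 201 to 210 in WT. The part of the myeloid markers was not tested either. These contrasts share samples with the DSS contrasts and are not independent of them.

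**Figure D3:**
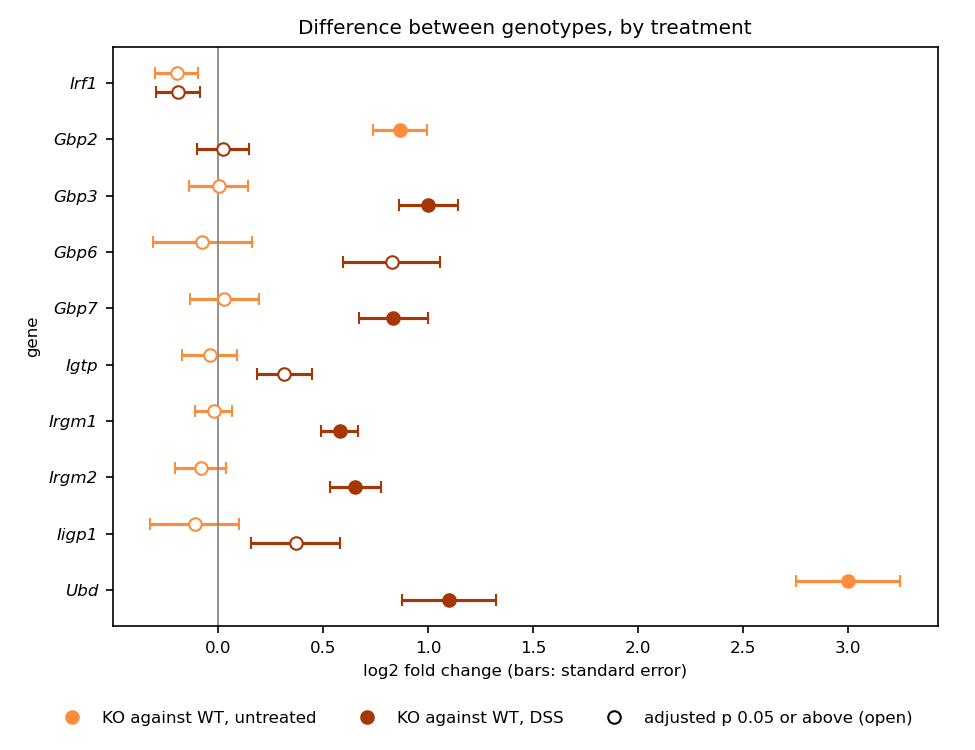
Log2 fold change of KO against WT for each gene, untreated and under DSS, with bars for 1 standard error and open symbols for an adjusted p of 0.05 or above. Gbp2 and Ubd stand apart untreated; under DSS Gbp3, Gbp7, Irgm1, Irgm2 and Ubd pass.

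The change with DSS differed between genotypes for 5 of the 10, 3 of them larger in KO (Gbp3, Irgm1 and Irgm2) and 2 larger in WT (Gbp2 and Ubd). Over all tested genes the share was 1.70% in either direction, 1.17% larger in KO and 0.527% smaller in KO. All 8 GTPases had their highest mean in KO under DSS and their second highest in WT under DSS. For Gbp2 those top groups overlapped, and for Gbp6 the WT groups overlapped. Summed over the 10 members, levels were 1704 ± 194 CPM in untreated WT and 1723 ± 103 in untreated KO, and 2809 ± 208 in WT under DSS and 3639 ± 66.4 in KO under DSS.

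Some of these calls were lost when a single library was left out, in places with little change in the estimate. For DSS in WT, Irgm1 stayed at 0.33 when any KO sample was left out, with adjusted p from 0.0537 to 0.0636. The 9 WT calls for DSS fell to 4 without WT DSS sample 3 and to 5 without untreated WT sample 2, and Irgm1 lost its call in 13 of the 18 alternatives tried, including the removal of any sample but untreated WT sample 3. Irf1, Gbp2, Igtp and Ubd passed in all 18. Gbp3 and Gbp7 also lost their calls without untreated WT sample 1, Gbp3 without WT DSS sample 1, and Irgm2 without WT DSS sample 2. The 5 calls between genotypes under DSS fell to 2 without WT DSS sample 1 and to 3 without WT DSS sample 2, while Gbp3 and Irgm1 passed in all 18. Gbp7 was lost without KO DSS sample 1 (adjusted p = 0.0545), and Ubd without KO DSS sample 2 (adjusted p = 0.0785) or 3 (adjusted p = 0.0694). The 5 calls for a different DSS response fell to 1 without WT DSS sample 1, to 2 without WT DSS sample 2, untreated KO samples 2 or 3 or KO DSS sample 1, and to 3 without untreated KO sample 1 or KO DSS sample 3. Ubd passed in all 17 alternatives of that test, Gbp3 in 14, Irgm1 in 12, Gbp2 in 9 and Irgm2 in 7.

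Per kilobase of exon, a scale that adjusts for exon length and not for sequence shared with other genes, the order changed between groups. In untreated WT, Igtp (105.4 CPM per kb) and Irf1 (100.1) were highest and Gbp6 (5.40) and Ubd (4.81) lowest. In WT under DSS, Gbp2 had moved from 37.4 to 137, next to Irf1 at 144. In KO under DSS, Igtp (222) was followed by Irgm2 and Gbp2 (139.6 each), Irf1 (126), Irgm1 (110.2) and Iigp1 (107). Ubd reached 38.6 in untreated KO, close to Iigp1 at 38.7 in the same samples.

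Other genes of the pathway came from lists written with earlier results of these data known, so their counts are descriptive. Of the other guanylate-binding protein and immunity-related GTPase genes, 17 of 18 were testable, and 5 rose in WT (against 2.80% of all tested genes) and 10 rose in KO (against 1.88% of all tested genes) with DSS, with none lower. Tgtp1 rose by 1.77 in WT (adjusted p = 0.000129) and by 1.83 in KO (adjusted p = 0.000264). Gm12250, by contrast, rose by 1.36 in KO (adjusted p = 2.09e-05) and not detectably in WT (0.39, adjusted p = 0.068), and the changes differed by 0.97 (adjusted p = 0.0057). The list's median log2 change was 0.74 in WT and 1.36 in KO.

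At the top of the pathway, Ifng RNA, the ligand, had 2, 4 and 0 counts in untreated WT, 7, 13 and 9 in untreated KO, 5, 2 and 7 in WT under DSS and 2, 15 and 27 in KO under DSS. The untreated genotypes did not overlap and the DSS genotypes did, and neither difference passed, at 1.89 (adjusted p = 0.401) and 1.56 (adjusted p = 0.456). Il12a had no count in any library, which allows up to 3 counts per library, or 0.370 to 0.536 CPM. Il18 rose in WT (0.86, adjusted p = 0.0458), and Il18bp, a decoy that neutralises IL-18, rose in WT (1.02, adjusted p = 0.000992). Il18bp was lower in KO than WT under DSS, at -1.01 (adjusted p = 0.00284). The receptor genes Ifngr1 and Ifngr2 and the kinase genes Jak1 and Jak2 passed in none of the 5 comparisons. Of 6 inhibitors, Socs1 and Socs3, which dampen cytokine receptor signalling, rose with DSS in both genotypes. Socs3 rose by 2.19 in WT (adjusted p = 1.24e-05) and by 1.37 in KO (adjusted p = 0.00179). Under DSS it was lower in KO than in WT, at -0.79 (adjusted p = 0.0483). Of 13 other targets, 6 rose in WT and 8 in KO with DSS, against 2.80% and 1.88% of all tested genes. Between untreated genotypes, 2 of the 13 were higher in KO (against 1.72% of all tested genes) and 2 were lower (against 1.76%), with a list median of -0.13. The chemokine genes Cxcl10 (2.35, adjusted p = 0.00483) and Cxcl9 (1.70, adjusted p = 0.0489) were the higher ones, and the transcription factor genes Irf8 (-0.39, adjusted p = 0.0458) and Stat2 (-0.47, adjusted p = 0.0143) the lower ones. Under DSS, 3 of the 13 were higher in KO (against 1.77% of all tested genes) and none lower. Cxcl10 was among them, at 1.53 (adjusted p = 0.0289). Stat2 and Irf8 averaged 171 and 289 CPM in WT under DSS, against 246 and 275 in KO under DSS.

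The type I interferon-stimulated genes, which answer to interferon-alpha and -beta, moved in opposite directions with DSS in WT and KO. In WT 10 of 16 fell with DSS and none rose, where 3.50% of all tested genes passed as lower, and in KO 14 rose (against 1.88% of all tested genes) and none fell. Their median log2 change was -0.55 in WT and 0.84 in KO, against 0.65 and 1.19 for the members. In the test of the difference, 15 of 16 had the larger change in KO, against 1.17% of all tested genes. No test compared this list with the members.

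**Figure D4:**
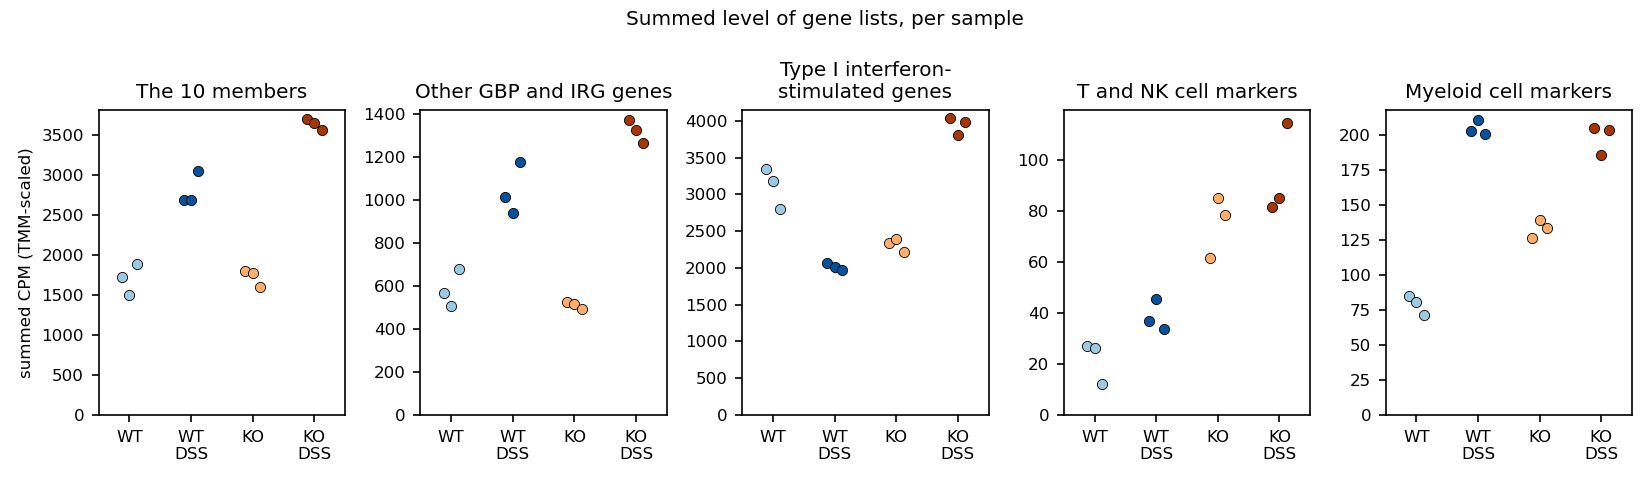
Summed CPM (TMM-scaled) of 5 gene lists in the 12 samples, by group, each panel on its own linear axis from 0. The sum of the 10 members is highest in the 3 KO samples under DSS, and the T and NK cell sum of every KO sample lies above that of every WT sample.

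Markers of other cells were present at low levels and varied with the groups. For T and NK cells, all 18 listed markers had counts, and their sum was 12.1 to 27.1 CPM in untreated WT, 33.8 to 45.6 in WT under DSS, 61.7 to 85.1 in untreated KO and 81.3 to 114 in KO under DSS. Of the 14 testable markers, 6 passed as higher in untreated KO (against 1.72% of all tested genes). Under DSS, 1 passed as higher in KO (against 1.77% of all tested genes). The median log2 difference of these markers was 2.30 untreated, with 14 positive, and 1.40 under DSS, with 13 positive. Ncr1 was at 0 in all untreated KO samples. Myeloid markers (12 genes) summed to 71.7 to 85.1 CPM in untreated WT, 126 to 139 in untreated KO, 201 to 210 in WT under DSS and 186 to 205 in KO under DSS, and Adgre1 was at 0 in all untreated WT samples. Cd14 made up most of these sums. The other 11 summed to 6.12 to 10.5 CPM in untreated WT, 16.4 to 19.4 in untreated KO, 22.3 to 34.2 in WT under DSS and 46.7 to 69.4 in KO under DSS, so that without Cd14, set aside after its values were seen, KO lay above WT in each treatment with no overlap. Of the 8 testable myeloid markers, 2 passed as higher in untreated KO (against 1.72% of all tested genes). Under DSS, 1 of the 8 passed as higher in KO (against 1.77%). The median log2 difference of the 8 was 1.15 untreated, with 8 positive, and 1.05 under DSS, with 6 positive. Lyz2, the lysozyme gene of macrophages, was higher in KO by 2.05 untreated (adjusted p = 0.0116) and by 1.85 under DSS (adjusted p = 0.00869). The epithelial sum was 24692 to 33096 CPM in untreated WT and 21735 to 23472 in KO under DSS.

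Outside the lists, Bco2, Tcp11l2, Nadk2 and Ctdp1 were among the 5 genes whose group means were closest to the members' median pattern, of 8851 genes of sufficient level. Closeness was the root mean square distance over the 4 centred group means in log2 units, from 0.0385 for Bco2 to 0.0894 for Ctdp1. Replicates of some were widely spread, as for Ctdp1, which read 2.33, 31.2 and 10.2 CPM in untreated WT. The pattern is an average over 4 points and gives no measure of relation.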

How the data were processed

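The deposited values are whole-number read counts per gene, deposited by the authors without normalization as far as the values show. The submitters' processing notes name STAR 2.5.2b, featureCounts 1.5.0 and GRCm38 (mm10). No strand setting is given in the sources used here, and SMART-seq2 libraries carry no strand information or molecular identifiers, so the floor of 3 counts covers counting error only. Per the labels' protocols, RNA (2 ng, integrity number 7.2 to 9.2) was used. Identifiers were matched without version to GENCODE M21 (46005 of 46517). Mitochondrial genes (37 listed) had 0 counts in all libraries. Replicates differed by more than sampling noise (chi-square per degree of freedom 5.13 to 20.1).

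The counts were tested in edgeR 4.0.16 (R 4.3.3): filterByExpr left 12522 genes holding 99.8% of counts, TMM scaling was used, 1 coefficient was fitted per group over the 12 samples, and the two-sided quasi-likelihood F test was adjusted by Benjamini-Hochberg in each of 5 contrasts: DSS in each genotype, genotype in each treatment, and the interaction. Named genes were all 10 members, Nfkb2, listed pathway and marker genes past the threshold or absent, and the 5 genes closest in pattern; some results that this rule selects are not reported here. The members and lists were chosen with earlier results of these data known. The test was checked on simulated counts. Alternatives were DESeq2 1.42.0, its size factors, other filters, a fit of the compared groups only, the replicate number as a block, and leaving out each sample. Same-numbered samples, paired by the titles' numbers alone, deviated together in every pair for DSS in KO (r = 0.106 to 0.204), where the block changed no member's call. Promoter windows were searched for exact motif letters. Protein sequences were not used here.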

Additional observations from a re-analysis of the deposited data

Results flagged for a closer look

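For 5 of the 10 genes the change with DSS differed between genotypes by the interaction term of the edgeR fit (adjusted over 12522 genes). Over all tested genes 1.70% passed this test, 1.17% as larger in KO and 0.527% as smaller in KO. The change was smaller in KO for Gbp2 (log2 -0.84, adjusted p = 0.0227) and for Ubd (log2 -1.90, adjusted p = 0.00675). It was larger in KO for Gbp3 (log2 1.00, adjusted p = 0.0158), Irgm1 (log2 0.60, adjusted p = 0.0208) and Irgm2 (log2 0.73, adjusted p = 0.0434). In each genotype the DSS and untreated samples did not overlap for Gbp2, Gbp3, Irgm1 and Irgm2, whereas for Ubd they overlapped in KO. With the replicate number as a block, Gbp2 (adjusted p = 0.0535) and Irgm2 (adjusted p = 0.0775) did not pass.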

How the results depend on the processing

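Of 890 gene results recomputed under the alternatives, 63 calls were lost (55 of them when 1 sample was left out), 10 were gained and 23 changed sign, none of the last called in either fit. The number of members past the threshold for DSS in WT was 9 and became 4 when only the compared groups were fitted, and 4 to 10 when 1 sample was left out. It stayed at 8 to 9 for DSS in KO and at 2 for untreated genotypes on leaving out 1 sample, and ranged from 2 to 6 for genotypes under DSS and from 1 to 5 for the interaction. With the replicate number as a block, the interaction count was 3 in place of 5: Gbp2 had -0.84 (adjusted p = 0.0535) and Irgm2 0.73 (adjusted p = 0.0775), and the block changed no other call of a member. Correlations of same-numbered samples were 0.0138 to 0.128 for DSS in WT, -0.175 to -0.0535 untreated and -0.117 to -0.0103 under DSS.

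Signs changed for estimates near 0. For untreated genotypes, Gbp3 had -0.0071 with DESeq2 size factors and -0.0073 in DESeq2. Over all the alternatives, untreated differences ranged from -0.14 to 0.18 for Gbp3, -0.27 to 0.35 for Gbp6 and -0.085 to 0.15 for Gbp7. They ranged from -0.12 to 0.094 for Igtp, -0.069 to 0.049 for Irgm1, -0.19 to 0.032 for Irgm2 and -0.35 to 0.26 for Iigp1. Under DSS, the genotype difference of Gbp2 ranged from -0.072 to 0.099 over all the alternatives. For the interaction, Irf1 had -0.0077 without a filter and ranged from -0.089 to 0.090 over all the alternatives. The cause was not tested.

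Over all genes, calls for DSS in WT were 789 and fell to 467 with only the compared groups; for untreated genotypes 436 became 195. Without a filter, and with DESeq2, they were 776 and 800 for DSS in KO (491 in edgeR as reported), 703 and 790 for untreated genotypes, 642 and 662 under DSS (390) and 356 and 368 for the interaction (213). Leaving out 1 sample gave 483 to 958 for DSS in WT, 235 to 710 for DSS in KO, 212 to 725 untreated, 160 to 566 under DSS and 152 to 350 for the interaction. Gbp6 also passed between genotypes under DSS in 5 of 18 alternatives, and Gbp7 passed the interaction in 3 of 17. The lowest count of a member in any library was 25, and the 3 samples per group limit the precision.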

Other observations

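In untreated WT sample 3, 8 of the 10 genes lay above their group mean, with a median deviation of 0.17 (log2). In WT DSS sample 3, 9 of the 10 lay above it, with a median deviation of 0.15, and in WT DSS sample 1 and untreated KO sample 3 none did. Irf1 and Ubd were lowest of their group in untreated WT sample 3, at 349.7 and 3.86 CPM.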
